A study of Brassica rapa with 12 samples.

Results

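The light response of LP08, a line of *Brassica rapa*, was measured as 3 libraries of light seedlings against 3 libraries of dark seedlings, which are 6 of the 12 libraries of the series. The members are all features with a Bra identifier, 41018 of the 42186 features counted in each library. The study title sets a vegetable type of the species against an oilseed type, and LP08 is taken here as the oilseed-type line. The other 6 libraries are from the line Chiifu, a Chinese cabbage, under the same pair of treatments. LP08 light seedlings were 1 week old and were grown under a day of 16 h light and 8 h darkness. LP08 dark seedlings were of the same age and were in darkness for 24 h a day. The labels do not say whether darkness lasted the whole week, at what hour the seedlings were collected, or whether replicates came from separate plants. No transgene, mutant allele or chemical treatment is named. RNA came from whole plants, so shoots and roots were pooled. A change in a transcript cannot be told apart from a change in the share of the cells that make it.

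A seedling kept in darkness grows a long hypocotyl with closed, pale cotyledons and lives on its seed reserves, a programme called skotomorphogenesis. Light, sensed by phytochromes and cryptochromes, turns the seedling to photomorphogenesis, in which cotyledons open, chloroplasts develop and photosynthesis genes are transcribed. Genes of glucosinolate synthesis, which makes sulfur-containing compounds that deter herbivores, and of flavonoid synthesis, the circadian clock and flowering are known to respond to light in the related plant Arabidopsis. The deposited files give identifiers without gene names, and the reference gene table held 1 of them. Levels of glucosinolate, flavonoid, clock and flowering genes are therefore not reported by name, and the lists drawn up for these pathways could not be joined to the counts. The 1 identifier found, Bra000116, carries the synonym SWEET9, a member of the SWEET family of sugar transporters, and had 0 reads in all 6 LP08 libraries. A count of 0 allows up to 3 counts, or 0.00951 CPM over these libraries, and this floor covers counting error only. CPM are counts for each 1000000 counts of the library total, which was TMM-scaled except where an unscaled total is stated.

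Library totals were 55018405 to 62062053 counts in light LP08 and 48773088 to 54724734 in dark LP08. Light replicate 3 stood apart from the other light libraries. Among genes at 10 CPM or more in light, it was the replicate farthest from the group median for 49% of genes, against 27.6% for replicate 1 and 23.4% for replicate 2. Its mean correlation with the other light libraries, over log2(CPM + 0.5) across genes, was 0.931, and that of the other light replicates was 0.961 each. In the dark the corresponding correlations were 0.973 to 0.980. The reason light replicate 3 stood apart was not tested, and values without it are given beside the main results for library composition and for the features given by identifier. Between replicates, the median coefficient of variation of genes at 10 CPM or more was 8.71% in light and 9.10% in the dark.

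Most of the tested transcripts of LP08 differed between light and dark. Of the 41018 Bra features, 5837 (14.2%) had no read in any LP08 library, and 32018 had reads in both light and dark. A total of 31088 passed the filter on low counts and were tested; they are called genes from here on. A gene could pass through its counts in 1 of the 4 groups of the series, so a low gene that passed through 1 LP08 group had to differ between light and dark. With edgeR's quasi-likelihood test at a Benjamini-Hochberg adjusted p under 0.05, 10304 genes were higher in light and 11033 lower. The share called over all features tested, Bra or not, was 68.5%, made up of 33.1% of all tested features that were higher in light and 35.4% that were lower. By at least 2-fold, calls numbered 7716 Bra genes in the higher direction and 7238 in the lower, beside 24.8% and 23.3% (together 48.1%) of all features tested. Library totals in place of scaled totals turned this balance, to 6753 higher and 8703 lower over all features. The 9751 Bra genes that were not called are not thereby shown to be level.

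The sizes of the changes spread widely to both sides. Across the tested Bra genes the log2 fold change (light minus dark) had a median of -0.04, quartiles of -1.02 and 1.1, and 5th and 95th percentiles of -3.14 and 3.32. The median size without regard to sign was 1.05, slightly more than a doubling. The median change of called genes was 1.65 for those higher in light and -1.32 for those lower. A called change of at least 4-fold was found for 4018 genes higher and 3214 lower in light. At least 32-fold (log2 of 5 or more) it was 575 and 602, and at log2 of 7 or more it was 200 and 260. Where a gene had no read in 1 treatment, its size depended on the small count that edgeR adds before taking ratios. Bra000002, at 0.133 CPM in light and 0 in the dark, had a log2 change of 5.99 by edgeR and 3.87 by limma-voom. Of the called genes, 204 had no read in the dark and 237 none in light. How many of them reached these sizes was not counted, so the numbers at these sizes may rest in part on them. Higher calls were the more numerous at 4-fold and lower calls from 32-fold upward, but library totals turned the balance at 4-fold, to 3450 higher and 3798 lower. With library totals in place of scaled totals, the median change of all tested features moved from -0.04 to -0.24. The scaling assumes that most genes do not change and places the centre of the changes near 0. The median and the balance of directions therefore depend on it, and a shift shared by most genes could not be measured.

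**Figure D1:**
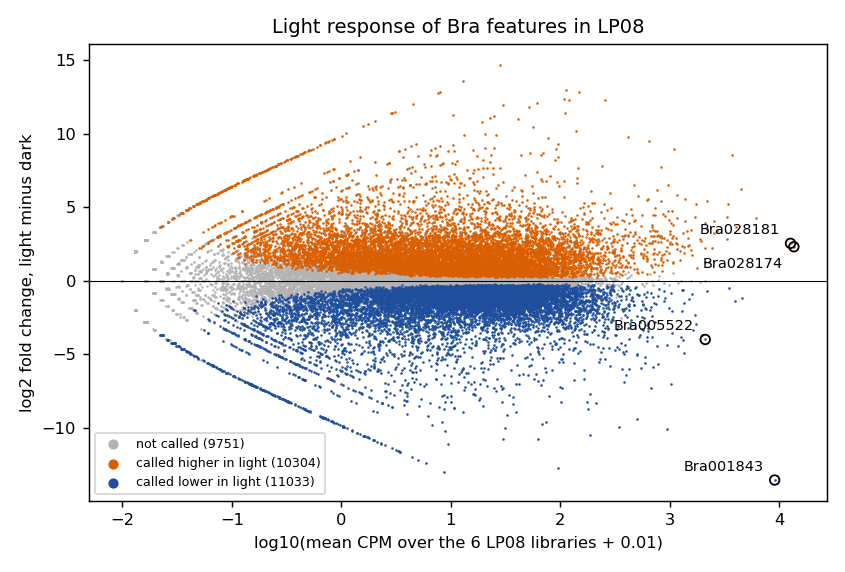
Each point is 1 tested Bra feature, with its mean level in the 6 LP08 libraries (log10 of CPM + 0.01) on the horizontal axis and its log2 fold change, light minus dark, on the vertical axis; orange points were called higher in light (10304), blue points lower (11033) and grey points were not called (9751). The 4 circled features are those described by identifier, and the diagonal lines at the left and outer edges are genes with no or few reads in 1 group.

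The calls went with separation of the libraries. Of the 21337 called Bra genes, 21002 (98.4%) had 3 light and 3 dark values that did not overlap. The 335 called genes with overlap had a median size of 1.61 on the log2 scale. Over all tested features, called or not, 75.9% had light and dark libraries that did not overlap, against the 68.5% called. Another 2611 Bra genes did not overlap and were not called. Calls and overlap were taken from the same LP08 libraries, so the separation is no independent support for the calls.

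Genes that could be shown to be level within 1.5-fold were a small set. By limma-voom, 2556 tested Bra genes (8.22%) had a 95% confidence interval of the light-to-dark ratio that lay inside a 1.5-fold change in either direction. Among the 14299 genes whose mean over the LP08 libraries reached 10 CPM, 1911 (13.4%) met this limit. In contrast, the interval of 14133 genes (45.5%) lay wholly beyond a 1.5-fold change. For the remaining genes the interval crossed the limit, so they were shown neither to be level nor to change beyond it. Of the 2556 level genes, 212 were also called by edgeR, with changes too small to reach 1.5-fold. Both sets are measured from the centre that TMM scaling sets, and they were not counted under another scaling. Library totals moved the median change of all tested features from -0.04 to -0.24. The intervals are for single genes and were not adjusted for the number of genes.

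The share of genes called, and the direction, varied with the level of the gene. Read counts were not divided by gene length, because lengths of these features were not in the sources used here, so a level is a share of reads and not of molecules. Of the 6312 genes with a mean under 1 CPM, 46.6% were called, with a median standard error of 0.64 on the log2 scale. Of the 10477 genes at 1 to 10 CPM, 69.3% were called, and of the 12463 genes at 10 to 100 CPM, 76.9%. The median standard errors of these classes were 0.25 and 0.16. At 100 to 1000 CPM it was 84.2% of 1751 genes. At 1000 CPM or more it was 92.9% of 85 genes.

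The middle and the top of the range leaned in opposite directions. At 10 to 100 CPM, 5511 genes were lower in light and 4070 higher, with a median log2 change of -0.22. At 1000 CPM or more, 55 genes were higher in light and 24 lower, with a median log2 change of 2.26. At 100 to 1000 CPM the calls were nearly balanced, with 725 higher and 750 lower. These leanings at 10 to 100 CPM and at 1000 CPM or more held with DESeq2 size factors (4203 higher and 5362 lower, and 56 and 23), with library totals (3479 and 6200, and 55 and 24) and without light replicate 3 (3840 and 5266, and 55 and 24). With library totals the balance under 10 CPM turned to more genes lower than higher. The near balance at 100 to 1000 CPM also depended on the scaling, with 676 genes higher and 833 lower by library totals. The classes were formed on the same libraries as the calls, and the difference between classes was not tested.

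**Figure D2:**
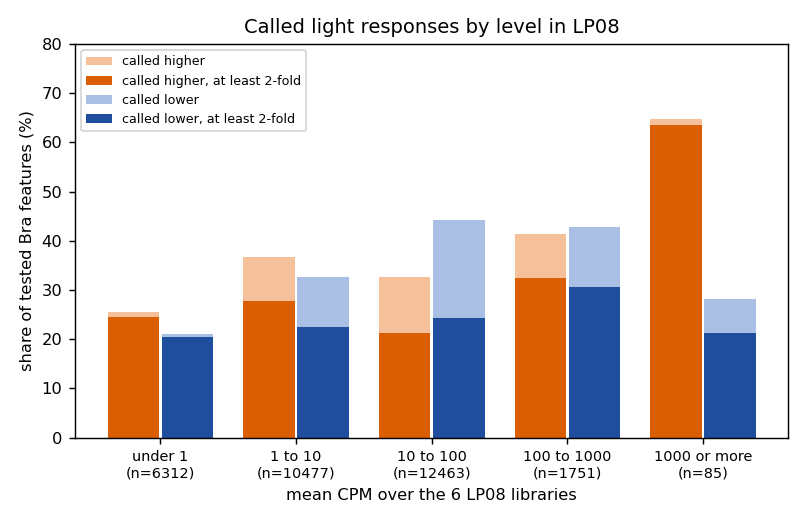
Bars show the share of tested Bra features called higher (orange) or lower (blue) in light, by mean CPM over the 6 LP08 libraries, with the darker part of each bar for changes of at least 2-fold and the number of features under each class. Among features under 1 CPM, 24.5% were higher and 20.4% lower by at least 2-fold, and at 1000 CPM or more 63.5% were higher and 21.2% lower by at least 2-fold.

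Reads in light were concentrated in fewer features. The number of features that together held 50% of the counts was 822, 806 and 608 in light replicates 1 to 3, and 1386, 1369 and 1316 in dark replicates 1 to 3. All light libraries lay below all dark libraries, and light replicate 3 was the lowest. The mean difference was -612 features (light minus dark), and -543 without light replicate 3. The 100 most abundant features held 24.7%, 25.3% and 28.3% of counts in the light libraries and 17.7%, 17.4% and 18.5% in the dark libraries. The difference of 8.26 percentage points was 7.16 without light replicate 3. An exact two-sided permutation test gave p = 0.1 for both measures, which is the smallest p that 3 against 3 libraries allow, and an adjusted p of 0.15 over 9 measures of library composition.

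The concentration showed as more features at very high levels and fewer at moderate levels, of the unscaled total. Features at 1000 CPM or more numbered 119 to 122 in the light libraries and 67 to 76 in the dark libraries. Features at 100 CPM or more numbered 1458 to 1580 in light and 1861 to 1932 in the dark. Features at 10 CPM or more numbered 12185 to 13040 in light and 13584 to 13732 in the dark. Light and dark libraries did not overlap in any of these 3 counts, and the exact two-sided permutation p was 0.1 for each (adjusted p = 0.15). The counts at 10 and 100 CPM depended on the scaling: with TMM-scaled totals the differences of means (light minus dark) were -41.7 and -81.0 features, against -917.7 and -372.3 with unscaled totals. Without light replicate 3 the unscaled differences were -645.5 and -339.7 features. At 1000 CPM the difference was 66.0 features with scaled totals, 47.3 with unscaled totals and 46.3 with unscaled totals and without light replicate 3.

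At the low end the outcome depended on the scaling. Of the unscaled total, features at 1 CPM or more were 23743 ± 343 in light and 23737 ± 117 in the dark (SD, n = 3, exact two-sided permutation p = 1, adjusted p = 1). With TMM-scaled totals, light libraries had 451.3 more such features than dark libraries on average, with the smallest exact two-sided permutation p that the design allows (p = 0.1). Features with at least 1 read were 31891 ± 228 and 32004 ± 261 (exact permutation p = 0.7, adjusted p = 0.788). The direction of the unscaled difference at 1 CPM, and of that in features with at least 1 read, turned when single libraries were left out.

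**Figure D3:**
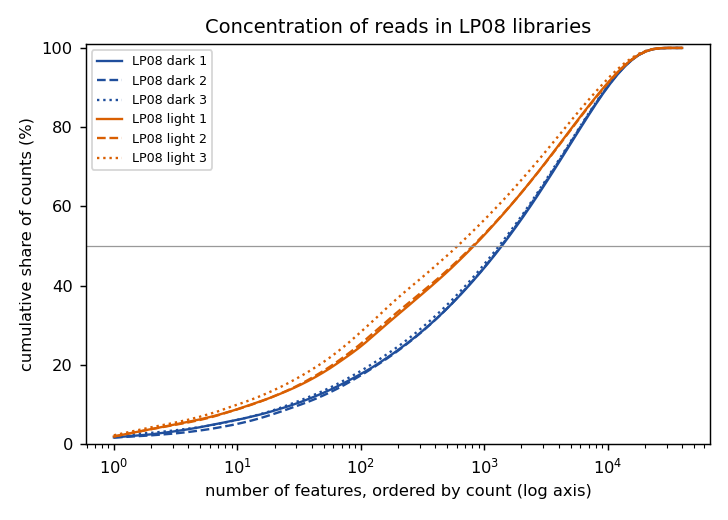
Cumulative share of counts (vertical axis, %) against the number of features taken in order of their count (horizontal axis, log scale), 1 line for each LP08 library, orange for light and blue for dark, with a grey line at 50%. The light lines cross 50% at 608 to 822 features and the dark lines at 1316 to 1386, and light replicate 3 is the dotted orange line above the other light libraries.

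The median feature at the top of 1 list stood far lower in the other, though the 2 highest in light were also among the 10 highest in the dark. Of the 100 Bra features with the highest mean CPM in light, 92 were called higher in light, beside 33.1% of all tested features. Their median was 1930 CPM in light and 263 CPM in the dark, and their median place in the dark order was 479.5. Of the 100 highest in the dark, 82 were called lower in light and 8 higher, where 35.4% of all tested features were called lower. Their median was 277 CPM in light against 1140 CPM in the dark, and their median place in the light order was 480. Since these features were picked for their level in 1 group, the direction of the counts follows in part from the choice. Calls were also more frequent at high levels. Among genes with a mean of 1000 CPM or more over the LP08 libraries, 64.7% were called higher in light and 28.2% lower. None of either 100 was under 1 CPM in the other treatment, so these changes of place were among transcripts that were read in both.

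Features with reads in 1 treatment and none in the other were mostly barely read. In light, 1525 Bra features had reads that were absent from all 3 dark libraries, with a median of 0.0133 CPM, and 1295 of them had a mean under 0.1 CPM. In the dark, 1638 features had reads that were absent from all 3 light libraries, with a median of 0.0195 CPM, and 1353 of them had a mean under 0.1 CPM. Both medians are near the level that a count of 0 allows, which is 0.0192 CPM over the 3 dark libraries and 0.0189 CPM over the 3 light libraries. Only 27 features read in light alone and 61 read in the dark alone reached a mean of 1 CPM. Few of the 21337 called genes stood for a transcript read under 1 treatment alone. Of 349 tested genes with no read in the dark, 204 were called, and of 414 with none in light, 237. Over all tested features, 68.5% were called. Such genes could pass the filter only through the LP08 group with reads or through Chiifu.

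A pair of features gained the most reads in light. They are given by identifier, chosen with the other pair below for the largest difference of mean CPM among called genes whose light and dark libraries did not overlap. The call and the separation of both pairs in LP08 were thus set by the choice. Bra028174 was at 20375, 21083 and 26293 CPM in light replicates 1 to 3 and at 5703, 3129 and 4800 CPM in dark replicates 1 to 3. Every light library was above every dark library, and light replicate 3 was the highest. By mean CPM it was in place 1 of all Bra features in light and place 4 in the dark. Its log2 fold change was 2.31 (SE 0.30, n = 3 each, edgeR adjusted p = 2.13e-05), and 2.18 without light replicate 3.

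Bra028181 was at 21147, 19990 and 23597 CPM in light and at 5003, 2341 and 3761 CPM in the dark, in replicate order. By the choice it too separated fully, and dark replicate 2 was the lowest dark library for both features. By mean CPM it was in place 2 in light and place 7 in the dark, and in light replicate 1 it was above Bra028174. Its log2 fold change was 2.54 (SE 0.28, n = 3 each, edgeR adjusted p = 5.39e-06), and 2.47 without light replicate 3. It is not known here whether the pair share reads with each other or with near-identical copies, since their sequences were not used here.

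For both features every light Chiifu library was also above every dark Chiifu library. In light Chiifu, Bra028174 was at 12171 to 16053 CPM and in dark Chiifu at 1318 to 2634 CPM. The light response of LP08 minus that of Chiifu was -0.47 on the log2 scale (SE 0.40, edgeR adjusted p = 0.402) and did not pass the test. Bra028181 was at 11681 to 15515 CPM in light Chiifu and at 4005 to 5795 CPM in dark Chiifu. Its response was larger in LP08 by 1.08 on the log2 scale (SE 0.37, edgeR adjusted p = 0.0468). That call was close to the threshold and was lost with library totals (adjusted p = 0.0671) and without each of 10 of the 12 libraries in turn. The exceptions were LP08 dark replicate 1 and Chiifu dark replicate 3, and the adjusted p over all alternatives was 0.00534 to 0.109. Over all tested features, 29.2% had a called difference of the response between the lines.

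**Figure D4:**
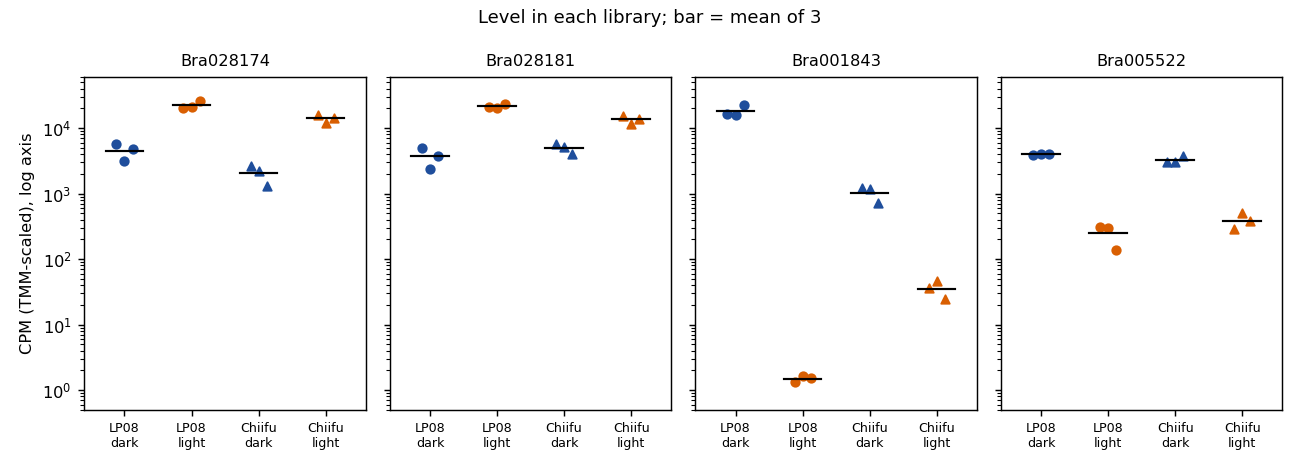
Level (CPM with TMM-scaled totals, log axis) of the 4 features described by identifier in each library, with circles for LP08, triangles for Chiifu, orange for light, blue for dark and a black bar at the mean of 3 libraries. Light LP08 libraries are at 19990 CPM or more for Bra028174 and Bra028181, at 1.33 to 1.61 CPM for Bra001843 and at 137 to 304 CPM for Bra005522.

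The other pair lost the most reads in light. Bra001843 was at 16220, 15953 and 22148 CPM in dark replicates 1 to 3 and at 1.33, 1.61 and 1.52 CPM in light replicates 1 to 3. By mean CPM it was in place 1 of all Bra features in the dark and place 22943 in light. The light values rest on 67, 90 and 80 reads, and the 3 libraries lay close together, light replicate 3 included. Its log2 fold change was -13.57 (SE 0.44, n = 3 each, edgeR adjusted p = 1.18e-09), and -13.59 without light replicate 3. Dark Chiifu libraries were at 716 to 1216 CPM for this feature and light Chiifu libraries at 24.8 to 45.6 CPM. Its response was more negative in LP08 than in Chiifu, with a log2 difference of -8.71 (SE 0.43, edgeR adjusted p = 7.94e-07). LP08 lay above Chiifu in the dark and below it in light, with no overlap of libraries in either treatment.

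Bra005522 was at 3875, 4005 and 3992 CPM in the dark and at 304, 301 and 137 CPM in light, in replicate order. The dark libraries were nearly level, and light replicate 3 was the lowest of all. It went from place 6 in the dark to place 552 in light. Its log2 fold change was -4.00 (SE 0.32, n = 3 each, edgeR adjusted p = 4.03e-07), and -3.72 without light replicate 3. Dark Chiifu libraries were at 2992 to 3779 CPM and light Chiifu libraries at 286 to 496 CPM. The difference of the responses, -0.93 on the log2 scale (SE 0.40), did not pass the test (edgeR adjusted p = 0.104).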

How the data were processed

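Per the labels' protocols, whole-seedling RNA was purified on RNeasy columns, cleared of genomic DNA with DNase I, and sequenced as stranded TruSeq mRNA libraries. The authors deposited 1 table of raw read counts per library, as whole numbers that were not normalized. FastQC, TopHat2, edgeR and featureCounts are listed, without roles or versions, per the submitters' processing notes. For the build, annotation, strand setting and filters, values were not given in the sources used here, so reads of overlapping, antisense or near-identical genes cannot be told apart. Counts of all 12 libraries were fitted with edgeR 4.0.16 in R 4.3.3: filterByExpr by group (minimum count 10, minimum total 15), TMM scaling, 1 mean per group, and the robust quasi-likelihood F-test. That left 31239 features (31088 Bra and 151 ENSRNA), over which p-values were adjusted. The standard error is the one implied by the F statistic. Levels of single genes use TMM-scaled totals. Confidence intervals are from limma 3.58.1, and the DESeq2 alternative used version 1.42.0. The procedure was also run on simulated data in which far fewer genes changed than were called here. Its outcome is not reported here and is not used as support for the calls. The labels do not say that replicates are separate cultures, so p-values reflect variation among these libraries, some of which may be technical. Replicates within LP08 groups differed beyond counting noise (chi-square divided by its degrees of freedom, 13.7 to 68.5), so each counted as its own library. Members, lists and the rule for genes given by identifier (the 2 higher and 2 lower with the largest difference of mean CPM) were chosen with earlier results of these data known. Alternatives were other scalings, filters and tests, the LP08 libraries alone, Bra features alone, a replicate block and each library left out; scalings of the counts by level and size were added after seeing the data.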

Additional observations from a re-analysis of the deposited data

Results flagged for a closer look

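Light responses that differed between LP08 and Chiifu by the test of the difference itself (edgeR, adjusted p under 0.05) are listed here. Such a difference was called for 9121 of the 31239 tested features. Among the 4 features given by identifier it was called for Bra001843, with a log2 difference of -8.71 (LP08 minus Chiifu), and for Bra028181, with 1.08, the latter near the threshold and lost in 11 of 20 alternatives.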

How the results depend on the processing

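Counts here are over all 31239 tested features, ENSRNA included, with 10328 higher and 11072 lower in light. These counts stayed within 1.5 times of their values under all 21 alternatives, at 8994 to 10995 higher and 10337 to 12549 lower, and the log2 fold changes of the 4 features given by identifier kept sign and call. Without LP08 light replicate 3, 9649 features were higher and 10438 lower. At the 2-fold limit the numbers over all features were 7740 (higher) and 7276 (lower), and library totals reversed the balance, to 6753 and 8703. With 12 left-out libraries the counts ranged from 9607 to 10995 higher, 10337 to 11794 lower, 7429 to 7890 higher by at least 2-fold and 6918 to 7412 lower by at least 2-fold. The difference of features at 1 CPM or more (light minus dark, 5.3) ranged from -131.3 to 197.7 over left-out libraries, and that of features with at least 1 read (-113.0) from -229.8 to 36.8. With scaled totals the former was 451.3. Whether replicate numbers pair the LP08 samples was not settled. The correlations of deviations of same-numbered libraries were -0.11, 0.43 and 0.24, and those of differently numbered libraries -0.43 to 0.27. Deviations from a mean of 3 libraries are tied to one another, so these values cannot decide it. With the number as a replicate block, 10176 features were higher and 10919 lower, and not every library correlated best with its own number. Genes under 1 CPM had the largest median standard error of the 5 level classes, 0.64; the part of depth in it was not tested.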
